A study of Mus musculus with 8 samples.

Results

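The 10 genes described here encode parts of the endoplasmic reticulum (ER) stress response: Wfs1, Hspa5, Hsp90b1, Pdia4, Xbp1, Atf4, Ddit3, Herpud1, Dnajb9 and Sdf2l1. They are 10 of 18193 genes measured in the dorsal skin of mice, and every probe set that the platform annotation assigns to exactly 1 of these symbols was taken, 21 in all. The probe set with the highest mean over the 8 arrays stood for each gene and is called its main probe set. The list was chosen by the diet difference of Wfs1, whose values were lower with collagen in earlier results of these data, together with the known role of the other 9 genes, so the Wfs1 difference is a description with no test.

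The collagen mice received AIN-93G, a purified rodent diet, mixed with fish scale collagen hydrolysate, a mixture of collagen peptides, at 2.0 g in every 100 g of diet. The control mice received AIN-93G alone. Both diets lasted 1 week, and all mice were female Hos:HR-1 hairless mice aged 10 weeks at sampling. Each diet had 8 mice, kept 4 to a cage, and gave 4 arrays labelled as biological replicates; the mice and cages behind each array were not given in the sources used here. Whole dorsal skin was powdered, so in these bulk samples fewer cells of a type and less RNA per cell cannot be told apart.

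The ER folds proteins that a cell secretes or places in its membranes. When unfolded proteins gather there, the sensors IRE1, PERK and ATF6 raise the production of chaperones, of degradation factors and of the transcription factors XBP1, ATF4 and CHOP (the product of Ddit3), which together form the unfolded protein response. Skin holds cells with a heavy secretory load, among them the fibroblasts that export collagen. WFS1 is an ER membrane protein linked to calcium handling and ER stress, and its loss causes Wolfram syndrome in humans.

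The promoters of the genes on which the results turn are printed to set their ER stress motifs beside their values. Each line gives the 250 bases before the transcription start from RefSeq (GRCm38.p6), read 5′ to 3′ on the strand of the gene, and capitals mark motif matches. All 10 genes had an entry.
Hspa5, chr2:34771840-34772089, plus strand: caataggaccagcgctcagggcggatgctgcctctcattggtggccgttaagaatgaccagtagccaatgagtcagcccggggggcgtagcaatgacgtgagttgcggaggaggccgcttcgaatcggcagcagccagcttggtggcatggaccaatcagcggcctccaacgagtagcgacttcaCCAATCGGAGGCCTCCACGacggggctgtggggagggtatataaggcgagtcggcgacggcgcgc
Xbp1, chr11:5520391-5520640, plus strand: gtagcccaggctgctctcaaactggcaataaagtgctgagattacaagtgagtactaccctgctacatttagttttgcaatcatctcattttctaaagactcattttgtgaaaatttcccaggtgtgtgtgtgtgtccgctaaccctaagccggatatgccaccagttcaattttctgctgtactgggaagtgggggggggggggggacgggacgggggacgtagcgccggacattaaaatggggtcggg
Dnajb9, chr12:44210069-44210318, minus strand: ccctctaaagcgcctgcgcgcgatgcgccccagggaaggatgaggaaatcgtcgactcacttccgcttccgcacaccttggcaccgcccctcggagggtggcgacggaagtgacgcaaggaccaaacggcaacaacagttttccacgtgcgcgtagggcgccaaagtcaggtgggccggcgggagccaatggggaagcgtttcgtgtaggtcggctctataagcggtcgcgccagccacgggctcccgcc
Herpud1, chr8:94386179-94386428, plus strand: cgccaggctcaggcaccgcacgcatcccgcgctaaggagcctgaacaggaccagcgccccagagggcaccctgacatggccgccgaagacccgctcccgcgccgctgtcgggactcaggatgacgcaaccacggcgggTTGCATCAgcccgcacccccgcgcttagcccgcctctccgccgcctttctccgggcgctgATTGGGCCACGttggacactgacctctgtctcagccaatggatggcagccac
Hsp90b1, chr10:86705445-86705694, minus strand: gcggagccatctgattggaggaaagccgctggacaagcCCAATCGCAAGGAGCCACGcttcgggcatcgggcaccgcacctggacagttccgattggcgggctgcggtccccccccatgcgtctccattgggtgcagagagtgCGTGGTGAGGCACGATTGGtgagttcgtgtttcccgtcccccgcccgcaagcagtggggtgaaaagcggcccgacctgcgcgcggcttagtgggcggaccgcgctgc
Wfs1, chr5:36988983-36989232, minus strand: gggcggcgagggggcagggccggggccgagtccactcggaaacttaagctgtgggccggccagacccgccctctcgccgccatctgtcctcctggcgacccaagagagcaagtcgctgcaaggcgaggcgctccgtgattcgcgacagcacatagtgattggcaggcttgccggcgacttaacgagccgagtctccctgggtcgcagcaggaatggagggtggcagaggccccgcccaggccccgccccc

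The motifs were searched on both strands of these windows. The ER stress response element ERSE, CCAAT and CCACG with 9 bases of any kind between them, matched in Hspa5 between 65 and 47 bases before the start. It matched at 2 places in Hsp90b1, on the plus strand of the gene between 212 and 194 bases and on the opposite strand between 107 and 89 bases before the start. ERSE-II, ATTGG and CCACG with 1 base between them, matched in Herpud1 between 52 and 42 bases before the start, and the C/EBP-ATF composite core TGATGNAA matched there on the opposite strand between 112 and 105 bases. The unfolded protein response element, TGACGTGG, matched in 0 of the 10. Among all 32851 promoters of the same length, ERSE was found in 0.113%, ERSE-II in 0.0304%, TGACGTGG in 0.563% and TGATGNAA in 3.45%. The windows of Xbp1, Dnajb9, Wfs1, Pdia4, Atf4, Ddit3 and Sdf2l1 held none of these letters, which says nothing about the factors themselves.

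The deposited values hardly differed between arrays. The median gene had a range of 9.16 millionths of a log2 unit over the 8 arrays. The cause of these small and unequal ranges was not tested. Differences are given in millionths of a unit on the deposited log2 scale and as multiples of the within-diet standard deviation (SD), with no fold change. The main probe sets of the 10 genes had levels between 9.41 and 13.05 on that scale, and all 10 exceeded 8.193, the middle value of the probe set means. Levels of different probe sets are not compared, since probes differ in their response.

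**Figure D1:**
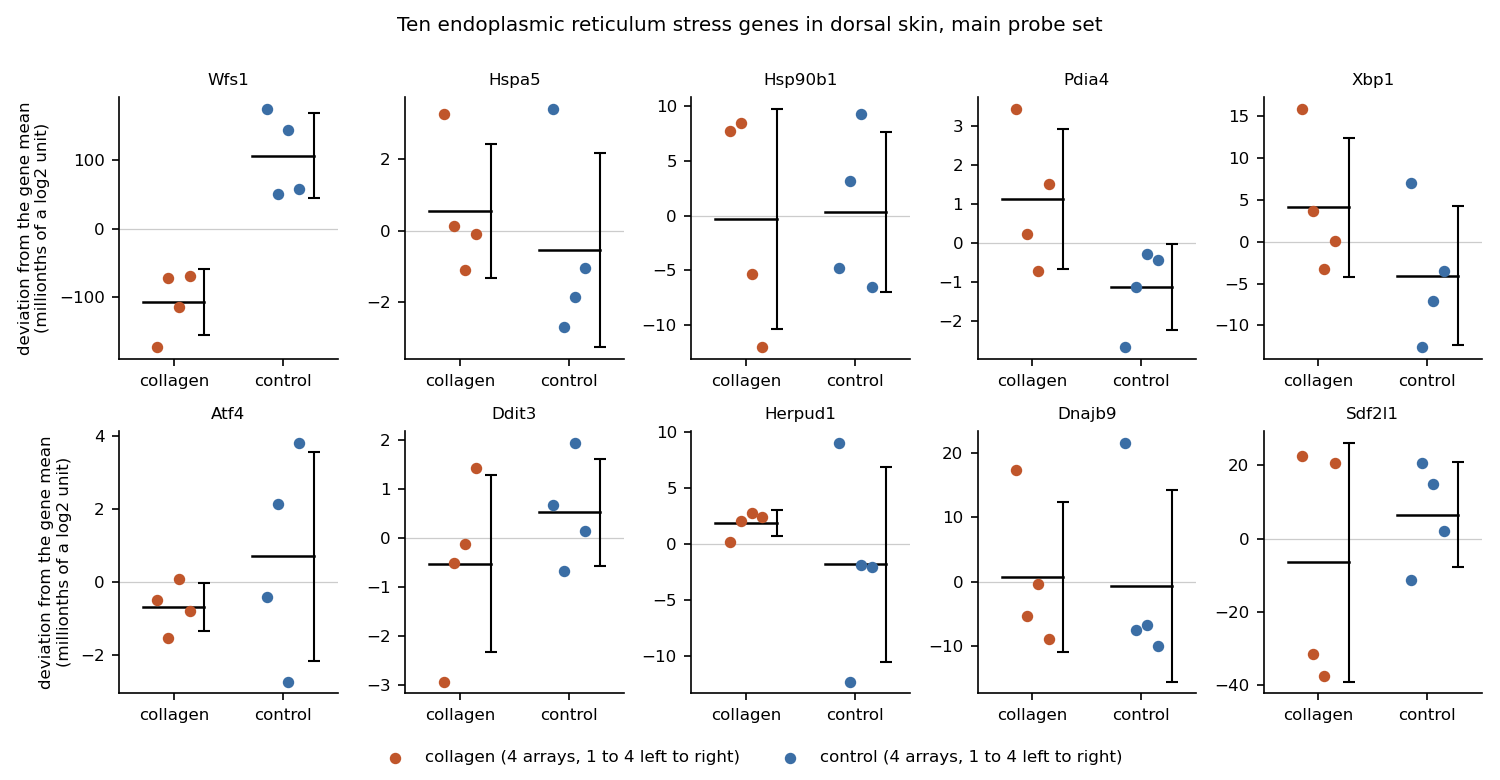
Deviation of each array from the mean of the gene's 8 arrays, in millionths of a log2 unit, for the main probe set of each gene. Points are arrays, in the order 1 to 4 from left to right within each diet, horizontal lines are diet means and error bars are SD (n = 4 per diet). Wfs1 is the 1 gene whose diets do not overlap as deposited, with collagen arrays between -173 and -69.2 and control arrays between 50.5 and 175.

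Wfs1 lay lower in each of the 4 collagen arrays than in any control array. Its single probe set had a level of 9.85. The deviations from its mean over the 8 arrays were -173, -71.2, -114 and -69.2 millionths in collagen 1 to 4, against 175, 50.5, 144 and 58.1 millionths in control 1 to 4. Collagen 1 was the lowest and control 1 the highest array, and the nearest arrays of the 2 diets were collagen 4 and control 2. The difference, collagen minus control, was -214 ± 38.0 millionths (SE, n = 4 each), or -3.83 within-diet SD. The range of Wfs1 over the arrays, 348 millionths, was larger than that of 92.3% of genes.

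The absence of overlap in Wfs1 depended on the scaling. Of all 18193 genes, 2.02% had diets that did not overlap, 0.671% with the collagen arrays lower and 1.35% with them higher. After quantile normalization the collagen arrays lay at 43.3, -90.4, -441 and -241 millionths and the control arrays at 373, 272, 174 and -90.4 millionths, so the diets overlapped, with a difference of -364 millionths. After median centring they lay at 81.7, -105, -190 and -104 millionths with collagen and at 108, 13.3, 110.0 and 85.9 millionths in controls, and again overlapped, with a difference of -159 millionths. The median centring moved collagen 1 most; its array median deviated by -255 millionths from the mean of the array medians.

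Markers of several cell types also lay on 1 side with collagen. Of 8 fibroblast markers 8 were lower, of 8 skeletal muscle markers 8, of 7 endothelial markers 7, and of 8 macrophage and dendritic cell markers 7, and none of the 70 markers measured in 10 lists passed adjusted p 0.05 by limma. The summed level of the muscle markers ran from 99.4554 to 99.5329 with collagen and from 99.5161 to 99.5494 in controls. That of the fibroblast markers ran from 97.4799 to 97.4858 with collagen and from 97.4818 to 97.4912 in controls. That of the endothelial markers ran from 62.4483 to 62.4488 with collagen and from 62.4485 to 62.4488 in controls, and that of the macrophage and dendritic cell markers from 93.3176 to 93.3267 with collagen and from 93.3214 to 93.3265 in controls. Each list's score is the mean deviation of its markers in SD over the 8 arrays. In collagen 2 and collagen 4 it was -1.61 and 0.67 for fibroblasts (controls -0.24 to 0.72). For endothelium it was -1.47 and 0.50 (controls -0.50 to 0.76), and for macrophages and dendritic cells -1.42 and 0.97 (controls -0.13 to 0.83). For muscle it was -1.61 in collagen 1 and 0.15 in collagen 3 (controls -0.67 to 1.34). Arrays of 1 diet thus differed widely, and the counts can follow single arrays. Of 7 keratinocyte markers 6 were higher, and of 7 melanocyte markers 6. Sebocyte markers were 3 lower and 3 higher, and adipocyte markers 3 lower and 2 higher. B and plasma cell markers were 5 lower and 2 higher, and mast cell markers 2 lower and 5 higher. Among all genes 47.1% were lower and 52.9% higher. No marker was at 0, and the lowest level was 7.46. With the muscle marker score as a covariate the Wfs1 difference was -228 millionths. All 8 markers of that score were lower with collagen, and the part of muscle or of any other cell type was not tested.

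In the other 9 genes no diet difference passed the test against the spread between arrays. Of them 4 were lower and 5 higher with collagen, against 47.1% lower and 52.9% higher among all genes. By limma's moderated test 0 of these 9 and 0 of all 18193 genes (0%) passed adjusted p 0.05. At an unadjusted p under 0.05 there were 0 of the 9, against 3.49% of all genes, 1.23% lower and 2.26% higher. The median difference over the 9 genes was 0.10 within-diet SD, and 0.02 with Wfs1 included, beside 0.05 over all genes.

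Among the chaperones, Hspa5 encodes BiP, the ER member of the Hsp70 family, which also holds the stress sensors inactive. Its main probe set (level 12.96) stood at 3.26, 0.141, -1.12 and -0.0887 millionths in collagen 1 to 4, against 3.41, -2.71, -1.86 and -1.04 millionths in control 1 to 4. One array of each diet, collagen 1 and control 1, stood above the rest, and the diets overlapped. The difference was 1.10 ± 1.61 millionths (adjusted p = 0.999 by limma).

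Hsp90b1 encodes GRP94, the ER form of Hsp90. It stood at 7.68, 8.40, -5.28 and -12.0 millionths in collagen 1 to 4 and at -4.73, 3.17, 9.25 and -6.47 millionths in control 1 to 4. Each diet held both high and low arrays, and the difference of -0.612 ± 5.97 millionths was smaller than its error.

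Pdia4 encodes ERp72, a protein disulfide isomerase that forms and reshuffles disulfide bonds. It had the smallest unadjusted p of the 9 genes. It stood at 3.43, 0.227, -0.702 and 1.52 millionths in collagen 1 to 4, against -2.66, -1.12, -0.263 and -0.422 millionths in control 1 to 4. In 3 collagen arrays it was above all controls, and collagen 3 lay within the control range. The difference was 2.24 ± 1.03 millionths, or 1.51 within-diet SD (unadjusted p = 0.070 and adjusted p = 0.999 by limma). The other Pdia4 probe set, 1450620_at (level 7.77), went the other way, by -0.545 ± 0.516 millionths. Its r with the main probe set over the 8 arrays was -0.03. With the mean of the Pdia4 probe sets the difference was 0.845 millionths.

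Dnajb9 encodes ERdj4, a BiP cochaperone of the Hsp40 family and a target of XBP1. It stood at 17.3, -5.33, -0.348 and -8.89 millionths in collagen 1 to 4 and at 21.5, -7.44, -6.73 and -10.0 millionths in control 1 to 4. As for Hspa5, collagen 1 and control 1 stood above the other 6 arrays, and the difference between the diets was 1.37 ± 9.06 millionths. Sdf2l1 encodes an ER protein that works with BiP complexes. It stood at 22.4, -31.5, -37.6 and 20.7 millionths in collagen 1 to 4 and at -11.4, 20.6, 14.9 and 1.97 millionths in control 1 to 4, with both its 2 highest and its 2 lowest arrays in the collagen group. Its difference was -13.0 ± 17.1 millionths.

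Among the transcription factors, Atf4 encodes the factor whose translation PERK signalling favours. It stood at -0.513, -1.54, 0.0675 and -0.793 millionths in collagen 1 to 4 and at -0.413, 2.14, -2.74 and 3.80 millionths in control 1 to 4. The collagen arrays lay inside the control range, and the difference was -1.39 ± 1.43 millionths. Ddit3 stood at -2.92, -0.499, -0.114 and 1.43 millionths in collagen 1 to 4 and at 0.678, -0.662, 1.93 and 0.149 millionths in control 1 to 4. Collagen 1 lay below all other arrays, and the difference was -1.05 ± 1.03 millionths. Since the response acts on Atf4 through translation and on Xbp1 through splicing, mRNA levels on a 3′ array do not read out the activity of either factor.

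Herpud1 encodes HERP, an ER membrane protein of ER-associated degradation, the disposal of misfolded proteins. It stood at 0.119, 2.04, 2.78 and 2.41 millionths in collagen 1 to 4, against 8.97, -12.3, -1.92 and -2.08 millionths in control 1 to 4. Its highest and lowest arrays were both controls, with the collagen arrays close together between them, and the difference was 3.67 ± 4.22 millionths. It was 0.181 millionths without control 2 and 7.27 millionths without control 1.

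Xbp1 encodes the factor that IRE1 activates by splicing its mRNA, and is measured by 4 probe sets. All 4 had a higher mean with collagen, where 53.3% of the 45037 probe sets did, and the diets did not overlap in 2 of them, where 1.29% of all probe sets were higher without overlap. The main probe set (level 13.05) stood at 15.8, 3.63, -3.24 and 0.0925 millionths in collagen 1 to 4 and at 6.99, -12.6, -7.13 and -3.55 millionths in control 1 to 4. These diets overlapped, with collagen 1 highest, and the difference was 8.14 ± 5.64 millionths.

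The probe set 1420886_a_at (level 12.71) stood at 1.52, 0.243, 1.01 and 1.09 millionths in collagen 1 to 4, against -0.977, -2.02, -0.877 and 0.0025 millionths in control 1 to 4. Every collagen array lay above every control, by 0.243 against 0.0025 at the nearest, and the difference was 1.94 ± 0.509 millionths, or 2.78 within-diet SD. The probe set 1420011_s_at (level 11.70) stood at 3.03, 3.55, 0.489 and 0.129 millionths in collagen 1 to 4, against -1.29, -1.87, -2.69 and -1.34 millionths in control 1 to 4. Its diets did not overlap either, and the difference was 3.60 ± 0.911 millionths, or 2.74 within-diet SD. By limma over all 45037 probe sets the unadjusted p was 0.00767 for the first and 0.00641 for the second, and neither passed (adjusted p = 1); 2.25% of all probe sets were higher with an unadjusted p under 0.05. The remaining probe set, 1420012_at (level 8.32), differed by 3.49 ± 3.60 millionths with overlapping diets. After quantile normalization 1437223_s_at, 1420886_a_at and 1420011_s_at had equal values in all 8 arrays, and after median centring all 4 were higher with collagen, by 57.1 to 63.3 millionths, with the shift of the array medians included. These probe sets share a gene, and they were singled out after their values were seen.

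**Figure D2:**
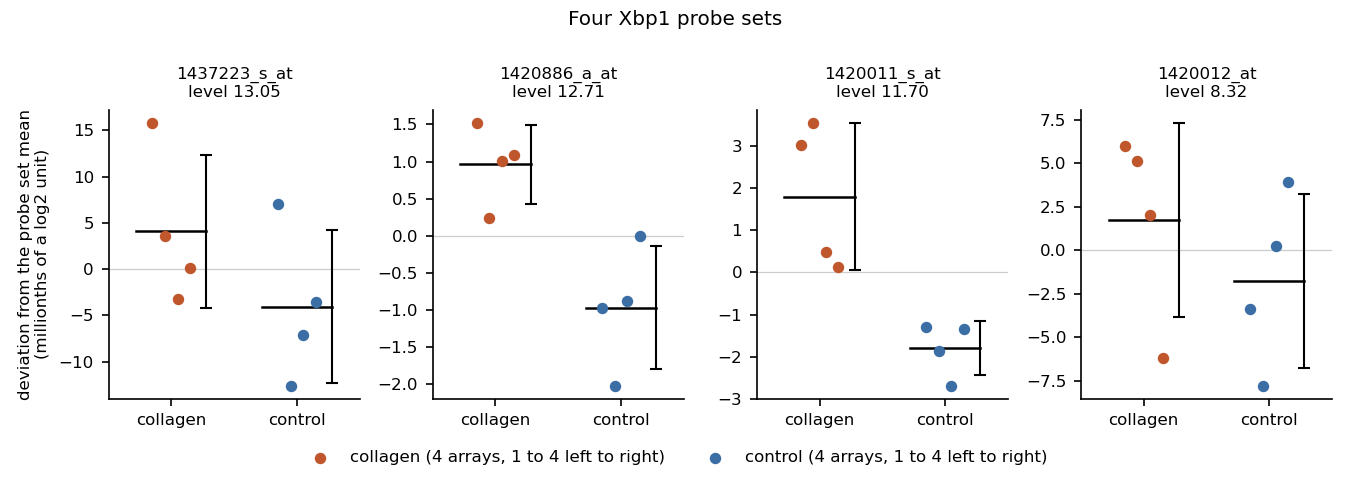
Deviation of each array from the mean of each Xbp1 probe set, in millionths of a log2 unit, with diet means and SD (n = 4 per diet) and the level of the probe set in its title. The collagen arrays lie above all controls for 1420886_a_at and 1420011_s_at, and overlap with them for 1437223_s_at and 1420012_at.

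Of the 10 genes, 7 had more than 1 probe set. Over all 21 probe sets, 9 were lower with collagen, beside 46.7% of all probe sets. The diets did not overlap in 3, the 2 of Xbp1 and that of Wfs1, beside 2.01% of all probe sets. Wfs1 was chosen by its diet difference and the other 2 share a gene, so nothing is read from the count of 3. By limma 0 of the 21 and 0 of all probe sets passed adjusted p 0.05. Further probe sets of a gene were set against its main one over the arrays. In 9 of 11 such pairs the correlation with the main probe set was positive, with a median Pearson r of 0.62 (n = 8 arrays). The highest was that of Herpud1 (r = 0.90, exact permutation p = 0.00494, adjusted p over the 11 pairs = 0.0543; Spearman's rho = 0.76, exact p = 0.0368, adjusted p = 0.202), with r = 0.54 without control 1 and control 2. The lowest was that of Atf4 with 1438992_x_at (r = -0.38, exact p = 0.359, adjusted p = 0.439; rho = -0.21, exact p = 0.619, adjusted p = 0.757), with r = 0.26 without control 2 and control 4. None of the 11 passed adjusted p 0.05, and 3 had an unadjusted exact p under 0.05.

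The covariation of the 10 genes over the 8 arrays was high in 1 small group of genes and not over the whole list. The median Pearson r over the 45 pairs was -0.03, beside 0.01 over all pairs of genes, and 19 of the 45 were positive. Of the 45 pairs 4 had r at or above 0.7, beside 4.47% of all pairs of genes, and 1 had r at or below -0.7, beside 4.05%. The pair at or below -0.7 was Wfs1 with Pdia4, and the diet difference that chose Wfs1 enters its r. The 4 pairs at or above 0.7 joined Hspa5, Xbp1, Dnajb9 and Herpud1. These genes were grouped after their r were seen, so the count of pairs among them is no test.

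**Figure D3:**
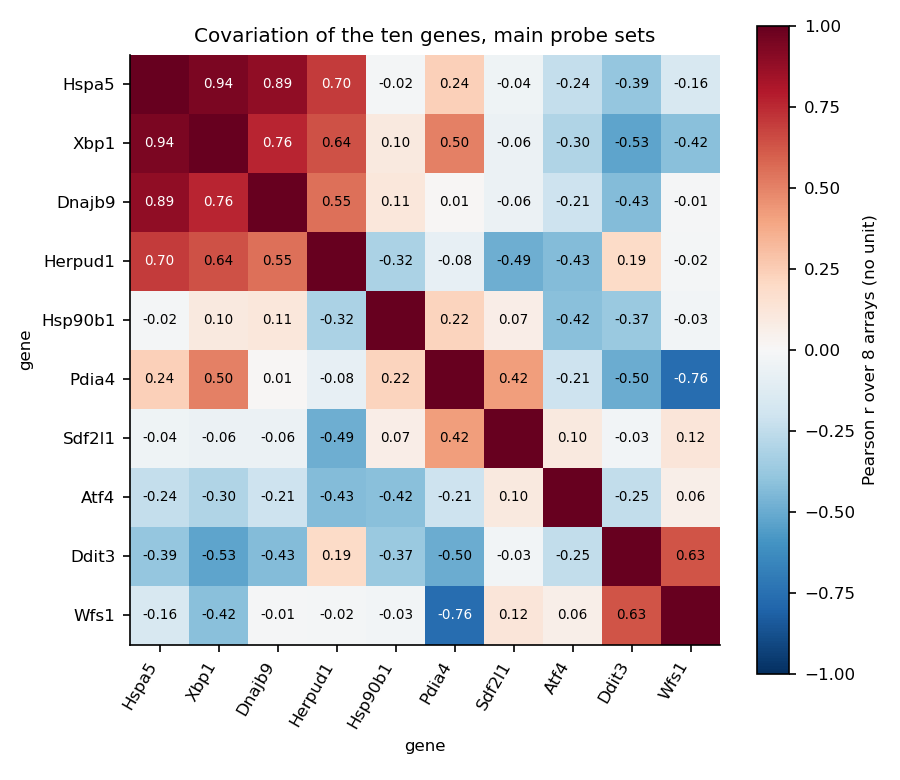
Pearson r over the 8 arrays between the main probe sets of each pair of genes, coloured from -1 (blue) to 1 (red). Hspa5, Xbp1, Dnajb9 and Herpud1 form the block of high values at the upper left, from 0.55 to 0.94, and Wfs1 and Pdia4 have the lowest value, -0.76.

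Hspa5 and Xbp1 varied together most closely, with r = 0.94 (exact permutation p = 1.49e-04, adjusted p over the 45 pairs = 0.00670) and rho = 0.95 (exact p = 0.00114, adjusted p = 0.0513). This was the 1 pair of 45 past adjusted p 0.05 by r, and 0 passed by rho. Without collagen 1 and control 1, the arrays farthest from the median of Hspa5, r was 0.99 (n = 6), and after each diet's mean was taken away it was 0.97. With 1 array left out, r lay between 0.92 and 0.99, but the adjusted p exceeded 0.05 without control 2 (0.0536), control 3 (0.0536) and collagen 1 (0.0893). Of all other genes, 0.209% had an r with Hspa5 at least as high as that of Xbp1. The relation was weaker in other probe sets. Over the 12 combinations of 3 Hspa5 and 4 Xbp1 probe sets r was positive in 12, with a median of 0.43 and a lowest value of 0.13, and 1 combination, that of the main probe sets, passed when adjusted over the 12. Without the 2 arrays farthest from the median, 10 of the 12 were positive, from -0.48 to 0.99 with a median of 0.36. With the mean of all probe sets of each gene, r was 0.73 (adjusted p = 0.244).

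Dnajb9 followed the same arrays. With Hspa5 it had r = 0.89 (exact permutation p = 0.0178, adjusted p = 0.302; rho = 0.57, exact p = 0.151, adjusted p = 0.756), but r was 0.02 without collagen 1 and control 1, so the relation rests on those arrays. With Xbp1 it had r = 0.76 (exact p = 0.0268, adjusted p = 0.302; rho = 0.67, exact p = 0.0831, adjusted p = 0.756), and 0.68 without collagen 1 and control 2. Those were the arrays farthest from the median of Xbp1. Control 1, the highest array of Dnajb9, stayed in, so the 0.68 cannot show how far the relation rests on that array. Herpud1 had r = 0.70 with Hspa5 (exact p = 0.0470, adjusted p = 0.423; rho = 0.62, exact p = 0.115, adjusted p = 0.756), and 0.85 without collagen 1 and control 1. Control 2, the lowest array of Herpud1, stayed in, so the 0.85 cannot show how far the relation rests on that array. The place of Herpud1 among these genes rests on the control arrays, where it too was highest in control 1 and lowest in control 2. Among the collagen arrays its order was the reverse of that of Hspa5, lowest in collagen 1 and highest in collagen 3. The 2 chaperones Hsp90b1 and Sdf2l1 stood apart from this group, with r of -0.02 and -0.04 to Hspa5. The promoter of Hsp90b1 holds 2 ERSE matches and that of Hspa5 holds 1, and a link between such matches and the correlations was not tested.

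Collagen 1 and control 1, in which Hspa5, Xbp1 and Dnajb9 were highest, were also the arrays with the highest Gapdh control difference. This is the value of the 3′ Gapdh control probe set minus that of the 5′ one, which is commonly read as a control of RNA quality and labelling. It deviated from its mean by 495, -60.1, -6.13 and 28.7 millionths in collagen 1 to 4, against 327, -235, -242 and -308 millionths in control 1 to 4. Its correlation was r = 0.92 with Hspa5 (exact permutation p = 0.00360, adjusted p over the 10 genes = 0.0180; rho = 0.71, exact p = 0.0576, adjusted p = 0.192). It was r = 0.89 with Xbp1 (exact p = 0.00236, adjusted p = 0.0180; rho = 0.83, exact p = 0.0154, adjusted p = 0.154). With Dnajb9 it was r = 0.90 (exact p = 0.00957, adjusted p = 0.0319; rho = 0.71, exact p = 0.0576, adjusted p = 0.192). Without collagen 1 and control 1 these r were 0.64, 0.62 and 0.50. With Herpud1, which was not high in collagen 1, it was r = 0.57 (exact p = 0.148, adjusted p = 0.370; rho = 0.67, exact p = 0.0831, adjusted p = 0.208), and 0.66 without collagen 1 and control 1. A correlation with it of that size or larger in either direction was seen in 1.64% of all genes for the value of Hspa5, in 3.12% for that of Xbp1 and in 2.83% for that of Dnajb9. After the Gapdh difference was fitted and taken away, r was 0.66 between Hspa5 and Xbp1, 0.35 between Hspa5 and Dnajb9, -0.22 between Xbp1 and Dnajb9, 0.55 between Hspa5 and Herpud1 and 0.34 between Xbp1 and Herpud1.

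**Figure D4:**
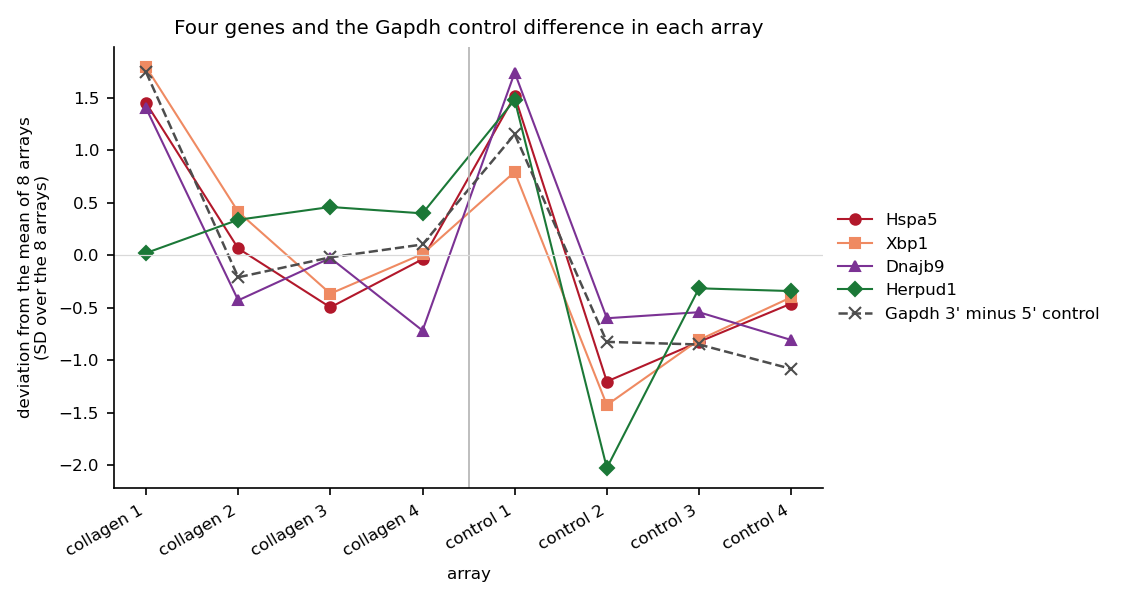
Deviation of Hspa5, Xbp1, Dnajb9 and Herpud1 and of the Gapdh 3′ minus 5′ control difference from their mean in each array, in SD over the 8 arrays, with collagen arrays to the left of the vertical line and control arrays to the right. Hspa5, Xbp1, Dnajb9 and the Gapdh difference all have their 2 highest arrays in collagen 1 and control 1, while Herpud1 is highest in control 1 and near its mean in collagen 1.

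Over the 8 arrays Wfs1 had low correlations with Hspa5, Hsp90b1 and Herpud1. Its r was -0.16 with Hspa5 and -0.03 with Hsp90b1, and after each diet's mean was taken away 0.20 and -0.16. With Xbp1 it was -0.42, and 0.07 after that step. With Herpud1 it was -0.02 over the 8 arrays but 0.71 once the diet means were taken away, and -0.58 without collagen 1 and control 1. Since the diet difference that chose Wfs1 enters its correlations, these are descriptions with no test. It ran against Pdia4, with r = -0.76 and rho = -0.60, but r was -0.35 without collagen 1 and control 1 and -0.53 after the diet means were taken away. With Ddit3 it had r = 0.63 and rho = 0.67, with r = 0.38 without collagen 1 and control 1 and 0.76 after the diet means were taken away. With the Gapdh difference Wfs1 had r = -0.36 and rho = -0.40, with r = -0.88 without collagen 1 and control 1, and with that difference as a covariate its diet difference was -218 millionths.

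The genes nearest to Wfs1 over the 8 arrays, of 11587 at or above the level of 8.193, were Cdkn1c, an inhibitor of cyclin-dependent kinases (r = 0.930), Gpnmb, a glycoprotein of melanocytes and macrophages (r = 0.922), and Mfge8, a secreted protein that marks dying cells for uptake (r = 0.921). They were picked as the highest of all, so no test is given. Since Wfs1 was itself lower with collagen, genes chosen by so high an r with it share its direction by that choice. All 3 had a lower mean with collagen, by -2.02 within-diet SD for Cdkn1c, -6.24 for Gpnmb and -5.42 for Mfge8. After each diet's mean was taken away their r with Wfs1 was 0.89 for Cdkn1c, 0.40 for Gpnmb and 0.42 for Mfge8. The genes nearest to Hspa5 were Dlg1, a scaffold protein of cell junctions (r = 0.981), Fnta, a subunit of protein farnesyltransferase (r = 0.972), and Snap47 (r = 0.965). Each of these 3 also had its highest values in collagen 1 and control 1, for Dlg1 at 7.18 and 6.80 millionths. Of the genes searched, 0.768% had an r of 0.9 or more with Hspa5 and 0.0690% with Wfs1.

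Other genes of the response gave no difference past the test. Of 104 symbols in 6 lists, 94 were measured, and 42 of them were lower and 52 higher with collagen, or 44.7% lower beside 47.1% of all genes. By limma 0 of the 94 passed adjusted p 0.05 and 2 had an unadjusted p under 0.05, beside 3.49% of all genes. Both were lower with collagen, beside 1.23% of all genes that were lower at that threshold. In 0 of the 94 were the diets free of overlap, beside 2.02% of all genes. The median difference was 0.12 within-diet SD, beside 0.05 over all genes.

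**Figure D5:**
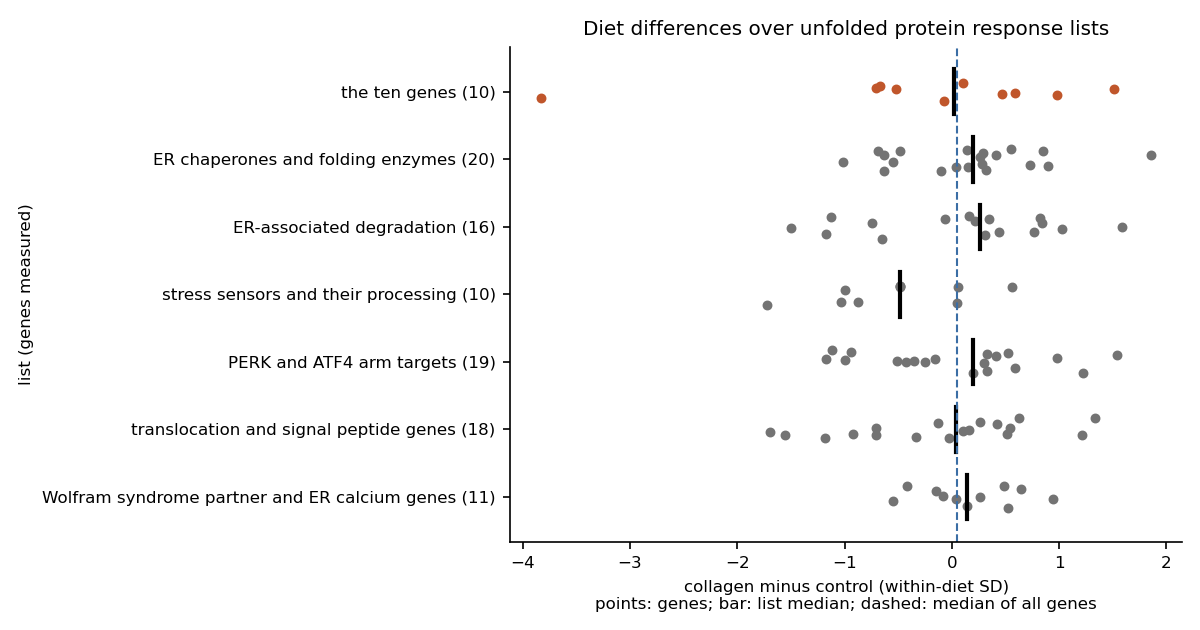
Collagen minus control difference in within-diet SD for each gene (points) of the 10 genes and of 6 other lists, with the list median (bar) and the median of all genes (dashed line, 0.05). Wfs1, at -3.83, stands to the left of all other points, and the list medians lie between -0.48 and 0.26.

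The chaperones and folding enzymes were lower in 7 of 20 genes, a count that was 11 without collagen 1. Canx, the lectin chaperone calnexin, stood at 0.836, 0.996, 0.0662 and -0.244 millionths in collagen 1 to 4, against -0.274, -0.604, -0.214 and -0.564 millionths in control 1 to 4, a difference of 0.828 ± 0.372 millionths (unadjusted p = 0.0646 by limma). Only collagen 4 lay within the control range. Fkbp14, a prolyl isomerase of the ER that acts on collagens, differed by -452 ± 303 millionths (unadjusted p = 0.183 by limma). Genes of ER-associated degradation were lower in 6 of 16. Selenos, a selenoprotein of the degradation complex, differed by 11.0 ± 4.70 millionths, and Syvn1, the ubiquitin ligase HRD1, by -2.55 ± 1.17 millionths.

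The stress sensors and their processing genes were lower in 7 of 10, with a median of -0.48 within-diet SD. Creb3l1 encodes OASIS, an ER-anchored factor related to ATF6 that drives collagen type I expression in mouse bone. It stood at -244, -451, -85.7 and -74.0 millionths in collagen 1 to 4, against 163, 612, 205 and -126 millionths in control 1 to 4. All collagen arrays lay below 3 of the controls, and control 4 lay within the collagen range. The difference was -427 ± 169 millionths, or -1.72 within-diet SD (unadjusted p = 0.0418 and adjusted p = 0.999 by limma). The related Creb3 differed by -1.36 ± 0.923 millionths.

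Targets of the PERK and ATF4 arm were lower in 9 of 19. Asns, asparagine synthetase, differed by 20.1 ± 8.85 millionths, with collagen 1 and 2 at 28.3 and 22.2 millionths and the other 6 arrays between -13.9 and -2.57 millionths. Cebpg, a partner of ATF4, differed by 1.44 ± 0.830 millionths. Translocation and signal peptide genes were lower in 9 of 18. Ssr3, a subunit of the translocon-associated protein complex, differed by -6.80 ± 2.74 millionths (unadjusted p = 0.0448 and adjusted p = 0.999 by limma), and Srprb, a subunit of the signal recognition particle receptor, by 7.87 ± 4.03 millionths. Of Cisd2, the gene of the second form of Wolfram syndrome, and the ER calcium genes listed with it, 4 of 11 were lower, and the 2 with the smallest p were the calcium entry genes Orai1 (90.6 ± 65.2 millionths) and Stim2 (1.50 ± 1.60 millionths). That count was 1 without control 2 and 7 without collagen 3.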

How the data were processed

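Biotin-labelled RNA from dorsal skin was measured on 1-colour arrays, 4 per diet. The authors deposited log2 values for all 8 arrays in a single table; the scale was inferred from the range of values. R 2.7.2 is named in the submitters' processing notes. Summary method, normalization, build: not given in the sources used here. Without detection calls the signal over background stays unknown, and precision is limited by the number of arrays.

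Values were used as deposited, without the 64 control probe sets. Of the other 45037, the platform annotation gave 1 symbol to 34945. The probe set with the highest mean over 8 arrays stood for each of 18193 genes. Diet differences come from limma (version 3.58.1, R version 4.3.3), using eBayes after lmFit, with two-sided p adjusted by Benjamini-Hochberg over all genes or all probe sets. The prior degrees of freedom were 0.488 for genes, so standard errors rest mostly on each gene's own spread. The p-values measure the spread between these arrays. Correlations have exact two-sided permutation p-values over all pairings of the 8 arrays (scipy 1.17.1). The scripts were tested on simulated data.

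Named genes were the 10 members, the 2 genes with the smallest p at or above a level of 8.193 in each of 6 pathway lists, and the 3 genes nearest to Wfs1 and to Hspa5 by Pearson r. The members and lists were chosen with earlier results of these data known. Tried as alternatives were leaving out each array, 2 other scalings (quantile normalization and median centring), 2 other variance settings and weighting of arrays, a replicate block, 2 covariates, a filter on dim genes, and the mean of all probe sets of a gene. Promoter sequences are those of RefSeq on GRCm38.p6; the build was used for names and promoters only.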

Additional observations from a re-analysis of the deposited data

Results flagged for a closer look

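Dnajb9 was singled out because control 1 stood far from the other controls. The gap from control 1, at 21.5 millionths, to the next control, at -6.73 millionths, was 0.895 of the range of the 4 control arrays, above Dixon's critical value for 4 samples. Of 20 groups tested (10 genes in 2 diets) this was the 1 past that value, and chance gives about 1 in 20. Control 1 also had the highest Gapdh control difference of the 4 controls (327 millionths), whose part in this was not tested.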

How the results depend on the processing

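Under all 18 alternatives 0 of all genes tested passed adjusted p 0.05 by limma. The 0 calls among the members other than Wfs1 and among the pathway genes therefore say nothing particular about them. Wfs1 was lower with collagen under all 18, by -191 to -233 millionths with 1 array left out, but its difference chose the list. The 2 other variance settings, the replicate block, the filter on dim genes and the mean of its single probe set cannot change its difference. The main count of 5 members lower with collagen was 4 to 6 with 1 array left out. It was 2 after quantile normalization, with 2 members higher and the rest without a difference, and 1 after median centring. For the pathway genes the main 42 became 42 to 50, 24 and 7. Among all genes 47.1% were lower as deposited, 30.5% after quantile normalization and 5.38% after median centring. Quantile normalization gave 12.2% of all genes equal values in all arrays, and these count as not lower. With array weights, the muscle score and the Gapdh covariate the share of all genes was 48.8%, 48.4% and 48.0%. Of the chaperones and folding enzymes 14 were lower with array weights, 12 with the muscle score and 11 with the Gapdh covariate, against 7 as reported, and of the PERK and ATF4 targets 5 with the muscle score, against 9. Quantile normalization set 5 members (Hspa5, Hsp90b1, Xbp1, Atf4 and Dnajb9) to equal values in all arrays, so it gave no correlations. Median centring added the array medians, whose range of 331 millionths exceeds that of 9 of the 10 members: the median r of the 45 pairs became 1.00, with 36 pairs past adjusted p 0.05, and the r of Wfs1 and Pdia4 0.37. The 1 pair past adjusted p became 0 to 1 with 1 array left out and 0 by Spearman.

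Signs turned as follows, in millionths, all with adjusted p of 0.625 or more. With median centring Hsp90b1 was 54.6, Atf4 53.8, Ddit3 54.1 and Sdf2l1 42.1, and Sdf2l1 was 38.9 after quantile normalization. With the Gapdh covariate Hspa5 was -0.707 and Dnajb9 -9.31, and with the muscle score -1.16 and -11.7. Atf4 was 30.8 as the mean of its probe sets. With 1 array left out Hsp90b1 ran from -3.51 to 3.29 and Dnajb9 from -4.17 to 8.76. Differences that kept their sign then ran from 0.193 to 2.42 for Hspa5, 4.23 to 11.8 for Xbp1, 1.47 to 2.84 for Pdia4, -2.54 to -0.356 for Atf4, -1.70 to -0.252 for Ddit3 and -22.7 to -2.66 for Sdf2l1. After the Gapdh fit the r of Xbp1 and Dnajb9 was -0.22; the causes were not tested.

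The samples share only a replicate number. For the check of pairing, each value was taken as its deviation from the diet mean in within-diet SD of the gene. These deviations correlated between same-numbered arrays of both diets by 0.362, 0.0486, 0.215 and 0.0111 over all genes. Of the 4 numbers, 2 were closest to their own number. Each replicate number occurs once in each diet, so a replicate block cannot change the diet differences or the count of members lower with collagen. With the block 0 of all genes passed adjusted p 0.05 by limma. Genes with an unadjusted p under 0.05 went to 1110 with the block, against 635 without.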
